A study of Bos taurus with 12 samples.

Results

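Right ventricles of 6 Angus steers with high pulmonary arterial pressure (PAP) were compared with those of 6 steers with low PAP, over every gene with at least 1 RPKM in at least 3 of the 12 libraries. RPKM counts the reads of a gene per kilobase of exon, scaled to the mapped reads of each library. All 12 libraries of the series entered, and 11374 of the 24616 genes of the deposited table met the rule, which uses expression levels but not the pressure groups. The high-pressure group joined the 3 animals labelled PH-Healthy, which had pulmonary hypertension without heart failure, and the 3 labelled PH-Failure, which had it with heart failure. The other 6 were labelled Low-PAP. All animals were wild-type steers, that is castrated males, raised at 2170 m (7120 ft) and slaughtered at 13 to 15 months of age. Every animal, the low-pressure ones included, had therefore lived in thin air, so that the comparison is between 2 outcomes of the same exposure and holds no animal from low elevation. The animals were grouped by measured pressure and by signs of failure, not assigned to a treatment.

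The right ventricle drives blood through the lungs and is normally a thin-walled, low-pressure pump. When resistance in the lung arteries rises, its wall thickens, cardiomyocytes enlarge and natriuretic peptides, hormones secreted by stretched heart muscle, increase. Genes of the fetal heart and of skeletal or smooth muscle are often re-expressed, collagen and other matrix accumulates between the cells, and mitochondrial energy metabolism tends to decline. In cattle at high altitude this course is known as brisket disease, named after the fluid that gathers in the brisket as the ventricle fails.

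Each library came from 1 animal. Depth, recovered from the steps between RPKM values, ran from 14739237 mapped reads in PH-Failure replicate 1 to 31090198 in Low-PAP replicate 5. A tested gene had a median of 370 reads per library. Cardiac and ventricular muscle genes were abundant everywhere. MYL2, the ventricular regulatory light chain, read 18100 to 39260 RPKM, and TNNT2, cardiac troponin T, read 7727 to 13200 RPKM. On the first principal component, which held 56.12% of the variance, the high-pressure libraries lay at 10.6 to 41.9 and the low-pressure libraries at -41.7 to -5.17, with Low-PAP replicates 2 and 6 nearest to the high-pressure side.

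At high pressure 4243 genes were higher and 1178 lower, which is 37.3% and 10.4% of the tested genes, or 47.7% in either direction (limma, Benjamini-Hochberg adjusted p under 0.05, on log2(RPKM + 1)). Differences below are log2 values on that scale, high minus low pressure, with their standard error, and they understate the change of genes near or under 1 RPKM. At least 2-fold differences were found in 496 higher genes (4.36%) and 68 lower genes (0.598%). The 6 high values all lay above the 6 low values in 1572 genes (13.8%) and all below them in 333 (2.93%). A gene could enter through 1 group alone. Of the 11374 genes, 852 reached 1 RPKM in fewer than 3 low-pressure libraries, and 571 of these were called higher. In the other direction 239 reached it in fewer than 3 high-pressure libraries, and 59 of these were called lower. The number of genes that differed was thus large, and the higher ones predominated.

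That predominance depended on the scaling. The median difference of all tested genes was 0.19. With median-ratio scaling, which sets the typical gene equal between libraries, the median was 0.0036, and 2504 genes were higher and 2542 lower (22.0% and 22.3%). With quantile normalization the median was -0.034 and the counts were 1930 and 2405 (17.0% and 21.1%). With scaling to the summed RPKM outside the mitochondrial genome the median was 0.27 and the counts were 4973 and 846. Of the called genes, those that were higher made up 78.3% in the main scaling, 49.6% with median ratios, 44.5% with quantiles and 85.5% with non-mitochondrial scaling. No called gene turned to the opposite call in any of them. Of the 496 genes higher by at least 2-fold, 491 were still called higher under median-ratio scaling and 487 under quantile normalization, and all 68 lower ones were still called lower under both. A median of a gene list is to be read against the 0.19 of all genes.

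The calls also followed the level of the gene and its exon length, that is the bases of exon per gene by which RPKM divides. In the quartile of genes with the longest exon length (2899 bases or more) 57.7% were higher and 1.93% lower. In the quartile with the shortest (up to 1287 bases) 21.8% were higher and 23.7% lower. Under median-ratio scaling these shares were 36.0% and 6.82% for the longest and 12.3% and 40.2% for the shortest. Among the quartile with the highest levels (18.3 RPKM or more) 21.2% were higher and 25.1% lower, against 46.3% and 4.15% in the quartile with the lowest. Per library, the longest quartile stood above the shortest by 0.013 to 0.26 log2 units at high pressure and by -0.39 to 0.061 at low pressure (exact permutation p = 0.00433, two-sided, adjusted p = 0.0130 over 18 library measures). The part of exon length in the gene calls was not tested beyond removing its trend. With that trend removed from each library, 2201 genes were higher and 2189 lower (19.4% and 19.2%), and 491 of the 496 and 67 of the 68 strongest kept their call. The counts of the gene lists are therefore given beside those by median ratios and with the length trend removed. Where 2 counts are joined, higher comes before lower. Each is to be read against the shares of all genes above. The lists were chosen with earlier results of these data known, so a share beyond that of all genes is no independent test.

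**Figure D1:**
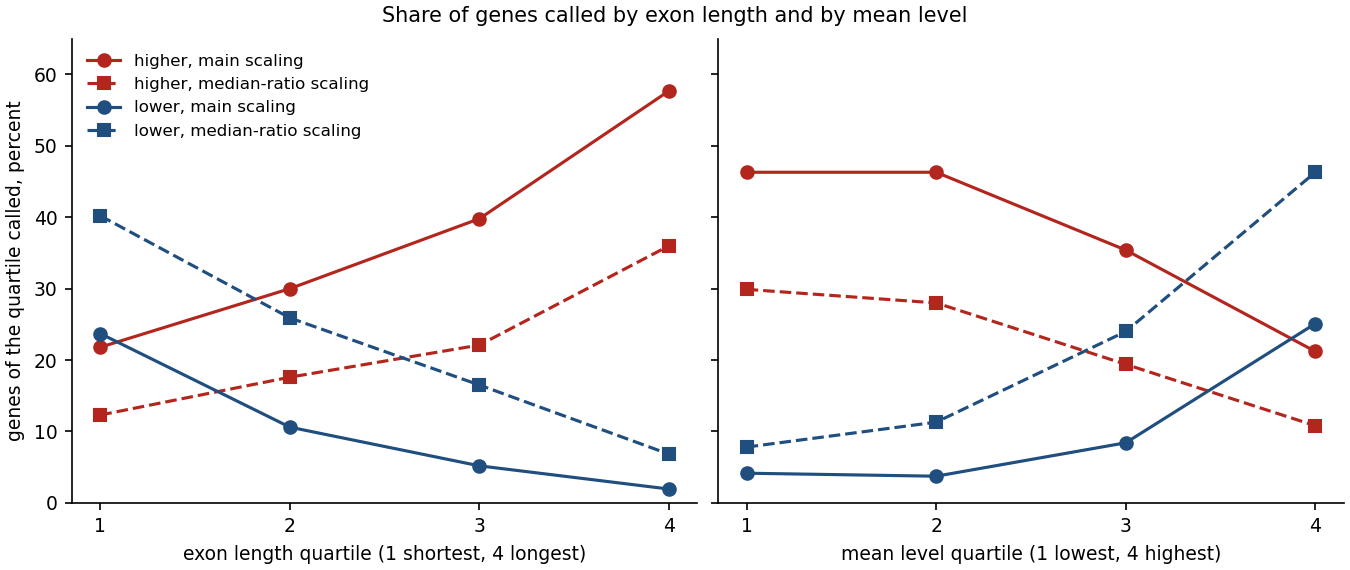
Percent of genes called higher (red) or lower (blue) at high pressure in each quartile of exon length (left) and of mean level (right), for the main scaling (circles, solid) and median-ratio scaling (squares, dashed). The share called higher rises from 21.8% in the shortest to 57.7% in the longest quartile and falls from 46.3% to 21.2% with rising level.

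**Figure D2:**
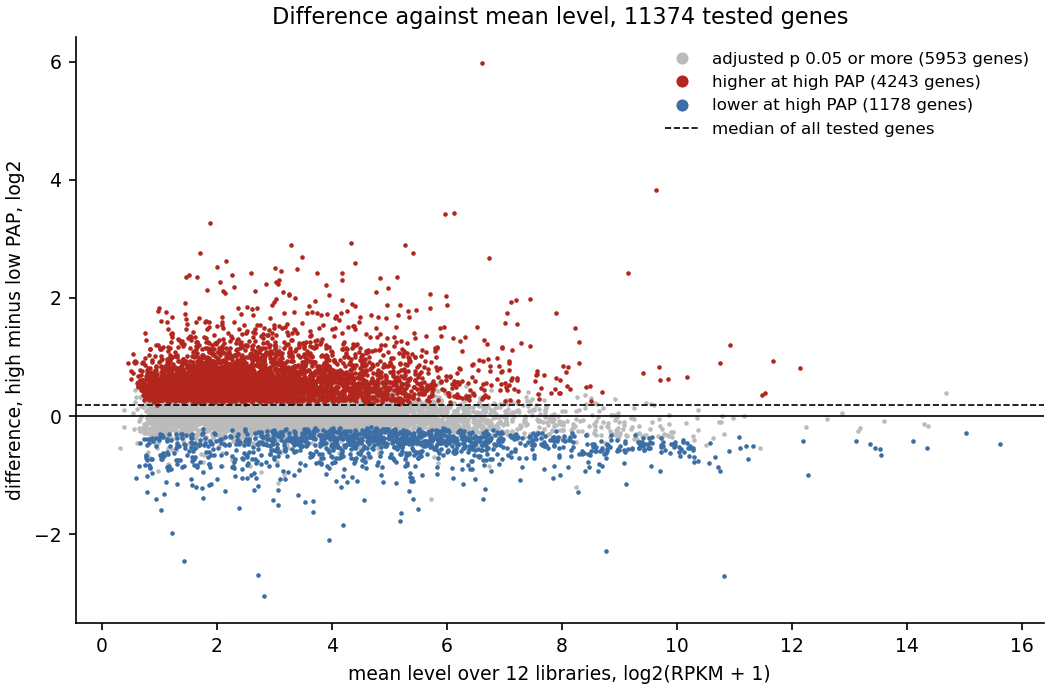
Difference between high and low pressure (log2, vertical axis) against the mean level over the 12 libraries (log2(RPKM + 1), horizontal axis), 1 point per tested gene, with called genes in red (higher, 4243) and blue (lower, 1178). NPPB is the topmost point at 5.97, and the quartile of genes with the highest levels has a median difference of -0.05, against 0.29 in the quartile with the lowest.

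A list of natriuretic peptide and wall stress genes, which also holds peptide receptors and processing enzymes, held the largest single difference. Of 21 measured, 14 were higher and 1 lower (median 0.94), with 11 and 1 under median-ratio scaling and the same counts with the length trend removed. NPPB (chromosome 16, 42700408 to 42701796 in the table's coordinates), the precursor of brain natriuretic peptide, read 3.23 to 70.4 RPKM (median 9.98) at low pressure, 871, 842 and 852 in the PH-Healthy and 460.3, 426 and 1710 in the PH-Failure animals. All 6 high-pressure animals were far above the highest low-pressure animal, and the difference of 5.97 ± 0.64 (adjusted p = 9.47e-05) was the largest of all tested genes. NPPA (chromosome 16, 42712043 to 42713502), its neighbour on the chromosome and the precursor of atrial natriuretic peptide, read 11.4 to 101 RPKM (median 21.8) at low pressure, 45.9, 80.8 and 68.9 in PH-Healthy and 246, 13.04 and 29.4 in PH-Failure. The groups overlapped, with PH-Failure replicate 1 above the low-pressure range and all other high-pressure animals, PH-Healthy and failing, inside it. The difference of 1.10 ± 0.66 did not pass the test (adjusted p = 0.188). NPR3, the receptor that clears natriuretic peptides, was at 4.12 to 16.8 RPKM (median 7.24) in the low group and at 63.1, 48.4 and 59.9 and 18.9, 53.2 and 93.99 in the PH-Healthy and PH-Failure groups. It was higher in all 6 high-pressure animals, by 2.58 ± 0.38 (adjusted p = 4.34e-04).

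ANKRD2, a stretch-responsive ankyrin-repeat protein of muscle, read 12.5 to 36.3 RPKM (median 19.7) at low pressure, 219.7, 196 and 205 in PH-Healthy and 128, 326 and 401 in PH-Failure. NES encodes nestin, an intermediate filament protein, and read 36.1 to 51.7 RPKM (median 39.3), then 305, 299 and 271, then 222, 299 and 219.9 in the same order of groups. Neither gene overlapped between groups, and the differences were 3.44 ± 0.28 and 2.68 ± 0.11 (adjusted p = 1.48e-05 and 2.97e-08), NES with the smallest standard error among the 30 genes plotted by animal. XIRP2, an actin-binding protein of the intercalated disc, stood at 10.3 to 22.2 RPKM (median 12) at low pressure, at 129, 121 and 109.6 in PH-Healthy and at 47.6, 121 and 132 in PH-Failure, where replicate 1 was the lowest high-pressure animal. NRAP, which anchors new myofibrils at the cell's ends, ranged from 64.5 to 136 RPKM at low and 248 to 429.9 at high pressure, without overlap. Their differences were 2.89 ± 0.24 and 1.99 ± 0.17.

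Skeletal actin, ACTA1, is expressed in the fetal heart. It read 41.1 to 1056 RPKM (median 196) at low pressure, 3819, 5042 and 4257 in PH-Healthy and 1827, 5881 and 850.3 in PH-Failure. The difference of 3.83 ± 0.73 (adjusted p = 0.00203) was the second largest by size, yet the groups overlapped, since PH-Failure replicate 3 lay under the highest low-pressure animal. MYH7, the main ventricular myosin heavy chain, read 2041 to 3129 RPKM (median 2680), 3621, 3251 and 4088 and 3413, 3840 and 2424 in low PAP, PH-Healthy and PH-Failure. Its groups overlapped and its difference of 0.40 ± 0.15 (adjusted p = 0.0386) was 0.16 under median-ratio scaling (adjusted p = 0.426) and -0.07 with the length trend removed, so its direction did not hold. It also missed the threshold without any 1 of Low-PAP replicates 1 to 4, PH-Healthy 1 or 3, or PH-Failure 1 or 2. Among 16 isoform genes of fetal, smooth and skeletal muscle 9 were higher and 2 lower (median 0.66; 7 and 3 by median ratios, 9 and 2 without the length trend). The non-muscle genes ACTN1 (alpha-actinin) and MYH10 (myosin IIB) were 1.47 ± 0.19 and 1.54 ± 0.24 higher, with 1.85 to 4.401 RPKM of MYH10 at low and 7.21 to 21.5 at high pressure.

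MYL7, the regulatory light chain of atrial muscle, moved the other way. It read 3065 to 6738 RPKM (median 4454) at low pressure, 486, 669.6 and 801 in PH-Healthy and 1560, 403 and 736 in PH-Failure, with no overlap. The difference was -2.71 ± 0.30 (adjusted p = 8.01e-05) at high pressure. MYL7 made up 79.0% of the summed level of 11 measured atrial genes. Without MYL7 that sum was 234 to 392 RPKM at low and 698 to 1995 RPKM at high pressure, the NPPB values included, so atrial genes did not share 1 direction. PAM, an enzyme abundant in atria that amidates peptide hormones, was 1.34 ± 0.16 higher (35.9 to 62.1 against 85.6 to 151 RPKM).

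The remaining genes of the 15 with the largest rises belong to several classes. SCN3B, a beta subunit of the voltage-gated sodium channel, read 5.76 to 67.6 RPKM (median 18.2) at low pressure, 211, 206 and 268 in PH-Healthy and 102, 287 and 214 in PH-Failure. SLC6A6, the taurine transporter, read 0.465 to 0.818 RPKM (median 0.688), 9.69, 5.82 and 13.2 and 8.25, 6.11 and 10.2 in that order. Both were separate in all 12 animals, with differences of 3.42 ± 0.48 and 2.52 ± 0.16 (adjusted p = 3.96e-04 and 3.92e-06). RANBP3L was near the lower limit at low pressure (0.0673 to 0.328 RPKM (median 0.1797)) and read 11.2, 17 and 4.95 in PH-Healthy and 4.46, 19.1 and 15.04 in PH-Failure, a difference of 3.27 ± 0.30. FSTL3, a secreted protein that binds activin and myostatin, read 1.3 to 6.71 RPKM (median 2.33) at low pressure, 33.1, 28.8 and 33.4 in PH-Healthy and 11.97, 27 and 27.7 in PH-Failure. APCDD1, a membrane inhibitor of Wnt signals, read 1.91 to 6.42 RPKM (median 3.25), 37.7, 36 and 25.8 and 20.03, 25.9 and 23.5. The lowest high-pressure value of either gene was above its highest low-pressure value, and the differences were 2.89 ± 0.28 and 2.69 ± 0.20.

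**Figure D3:**
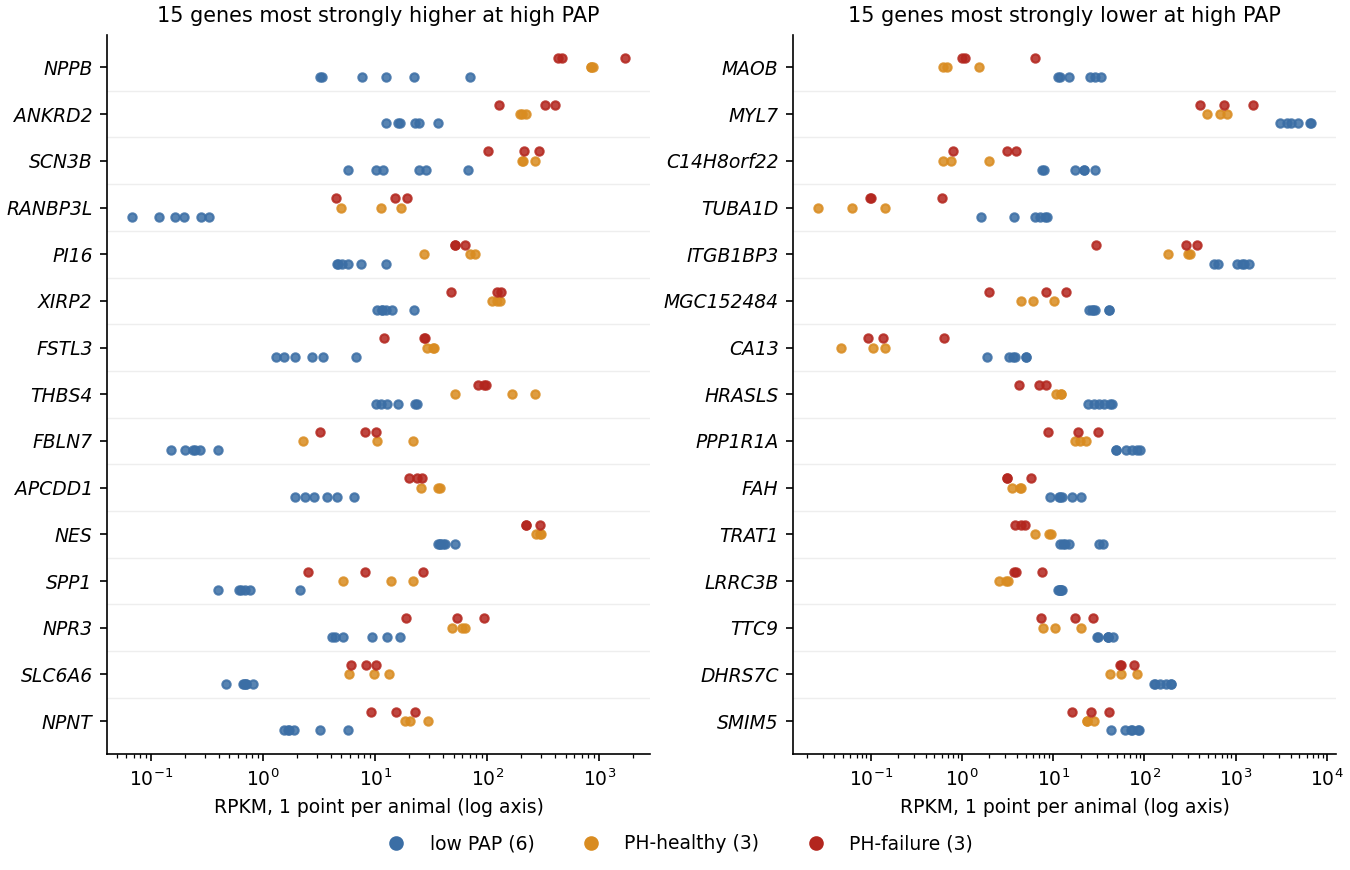
RPKM (log axis) of the 15 genes with the largest rise (left) and the 15 with the largest fall (right) among called genes with a symbol, a mean log2 level of at least 1 and no overlap, 1 point per animal in blue (low PAP), orange (PH-healthy) and red (PH-failure). Low-pressure and high-pressure points do not overlap in any row, by the choice of genes, and the failing animals spread more widely than the PH-healthy ones in rows such as XIRP2, MAOB and ITGB1BP3.

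Sarcomere and Z-disc genes were mixed. Of 34, 15 were higher and 6 lower (median 0.24, 0.06 by median ratios and -0.04 with the length trend removed, where 9 were higher and 6 lower). DES, the muscle intermediate filament desmin, read 1167 to 1536 RPKM (median 1240) at low pressure, 2935, 3061 and 2492 in PH-Healthy and 2665, 2492 and 4478 in PH-Failure, and was 1.21 ± 0.14 higher without overlap. MYPN (myopalladin) and FLNC (filamin C), both of the Z-disc, were 1.71 ± 0.22 and 1.16 ± 0.16 higher. Intercalated disc and costamere genes, which join muscle cells to each other and to the matrix, were called higher in 19 of 32 (median 0.44), in 11 by median ratios and in 9 with the length trend removed, where 3 were lower. LAMA2 (laminin alpha 2) read 11.4 to 26.2 RPKM (median 13.8) at low pressure, 64.1, 75.3 and 53.5 in PH-Healthy and 37.9, 67.1 and 63.8 in PH-Failure. Every high-pressure animal was above the low-pressure ones for LAMA2 (1.89 ± 0.19), the integrin subunit ITGAV (2.00 ± 0.27), the catenin CTNNA3 (1.31 ± 0.14) and dystrophin, DMD (0.89 ± 0.14).

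Of 16 tubulin and microtubule genes 5 were higher and 3 lower (5 and 5 by median ratios, 5 and 3 without the length trend). The higher ones included the microtubule-associated MAP1A, at 1.94 to 4.15 RPKM (median 2.73) in the low group and 22.6, 19.1 and 14.1 and 11.2, 20.6 and 21.9 in PH-Healthy and PH-Failure (2.30 ± 0.20), and MAP4 (1.49 ± 0.22). TUBA1D, an alpha-tubulin gene, read 1.605 to 8.52 RPKM (median 6.71) at low pressure, 0.0263, 0.0623 and 0.145 in PH-Healthy and 0.603, 0.0981 and 0.1002 in PH-Failure. The difference was -2.45 ± 0.28, which left it below 1 RPKM in all high-pressure animals, with the caveat that tubulin genes are similar in sequence and the handling of shared reads is not stated. Calcium cycling genes were higher in 12 and lower in 1 of 24 (median 0.43), in 8 and 1 by median ratios and in 8 and 4 with the length trend removed. HSPB6, a small heat shock protein phosphorylated by protein kinase A, read 138 to 401 RPKM (median 251) at low pressure, 1396, 2007 and 1203 in PH-Healthy and 1076, 1733 and 828 in PH-Failure, a difference of 2.43 ± 0.25 (adjusted p = 4.66e-05). The sodium-calcium exchanger SLC8A1 was 1.17 ± 0.22 higher.

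Of 20 sodium and potassium channel genes 8 were higher and 2 lower, near the 37.3% and 10.4% of all genes (5 and 4 by median ratios, 3 and 4 without the length trend), and their median of 0.21 turned to -0.02 by median ratios. Beside SCN3B they included KCNJ8, the ATP-sensitive potassium channel Kir6.1, which read 91.3 to 184 RPKM (median 113) at low pressure, 44.4, 63.6 and 69.2 in PH-Healthy and 103, 53.01 and 54.1 in PH-Failure. KCNJ8 was -0.89 ± 0.20, that is lower, with PH-Failure replicate 1 inside the low-pressure range.

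Adrenergic and cyclic nucleotide genes were higher in 17 and lower in 5 of 30 (median 0.47; 12 and 5 by median ratios, 11 and 6 without the length trend). PPP1R1A, the inhibitor of protein phosphatase 1 that protein kinase A activates, fell. It read 49.1 to 88.5 RPKM (median 68.4) at low pressure, 19.7, 23.1 and 17.3 in PH-Healthy and 30.8, 18.9 and 8.68 in PH-Failure, a difference of -1.78 ± 0.25 (adjusted p = 3.07e-04). PRKAR1A, a regulatory subunit of that kinase, was 0.78 ± 0.10 higher, and PDE4B, a phosphodiesterase that degrades cyclic AMP, was 1.18 ± 0.16 higher. Hypertrophy signalling genes were called higher in 18 of 29 (median 0.59), in 17 by median ratios and in 14 with the length trend removed, with 2 lower in each of these 2 settings. TEAD4, a transcription factor of the Hippo pathway, read 0.494 to 1.33 RPKM (median 0.737) at low pressure, 5.56, 4.04 and 5.38 in PH-Healthy and 2.94, 4.84 and 6.51 in PH-Failure (1.66 ± 0.16). The cardiac transcription factors TBX20 and GATA6 were 1.41 ± 0.18 and 1.03 ± 0.15 higher, and none of these 3 genes overlapped between groups.

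Immediate early genes, which respond within minutes to stress or handling, were seldom called in the main scaling. Of 22, 2 were higher and 1 lower (median -0.27; 0 and 8 by median ratios, 0 and 6 without the length trend). FOSL2 (0.99 ± 0.34) and GADD45B (-0.60 ± 0.22) were called with adjusted p = 0.0291 and 0.0366, both with overlap, and FOSL2 was not called under median-ratio scaling (adjusted p = 0.0557). FOSL2 also missed the threshold without any 1 of Low-PAP replicates 1, 3, 4 or 5, PH-Healthy 1 or PH-Failure 3, and GADD45B without any 1 of Low-PAP 1, 2 or 5, PH-Healthy 2 or 3, or PH-Failure 1 or 2.

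Extracellular matrix genes were higher across most of their lists. Collagens and enzymes that process them were called higher in 30 of 36 (median 0.81), in 24 by median ratios and in 21 with the length trend removed, where 1 was lower. Their median exon length of 4173 bases is above the 1948 of all tested genes. COL1A1, the main chain of fibrillar collagen I, read 19.3 to 40.7 RPKM (median 25.9) at low pressure, 86.8, 153 and 45.4 in PH-Healthy and 158, 97.1 and 93.5 in PH-Failure. COL8A1, a short-chain collagen of vessel walls, read 1.68 to 5.103 RPKM (median 2.76), 21.2, 26.7 and 7.15 and 13.2, 17.1 and 27.4. The groups were separate for both, by 1.82 ± 0.26 and 2.24 ± 0.29 (adjusted p = 4.07e-04 and 2.18e-04), with PH-Healthy replicate 3 the lowest high-pressure animal in each. COL5A1 was 1.48 ± 0.20 higher, and LOXL1, which cross-links elastin, was 1.89 ± 0.26 higher.

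Matricellular, proteoglycan and elastic fibre genes were called higher in 27 of 38 (median 0.90), with 25 higher and 3 lower by median ratios and 20 and 2 without the length trend. THBS4 (thrombospondin 4) read 10.2 to 23.4 RPKM (median 14.3) at low pressure, 168, 268 and 51.6 in PH-Healthy and 82.3, 96.5 and 93.5 in PH-Failure. SPP1 (osteopontin) read 0.394 to 2.12 RPKM (median 0.664), 13.9, 21.96 and 5.15 and 8.05, 2.53 and 26.6. THBS4 (2.77 ± 0.33) and SPP1 (2.62 ± 0.43) were higher in all 6 high-pressure animals, although PH-Failure replicate 2 stood close to the highest low-pressure value of SPP1. Fibulin 7 (FBLN7, 2.76 ± 0.37) and nephronectin (NPNT, 2.50 ± 0.26), both matrix proteins, rose from 0.149 to 0.394 to 2.26 to 21.9 RPKM and from 1.54 to 5.71 to 9.17 to 29.4 RPKM. The proteoglycans BGN (biglycan) and VCAN (versican) were 2.04 ± 0.24 and 1.65 ± 0.15 higher. LTBP2, a latent TGF-beta binding protein of elastic fibres, and the leucine-rich PRELP were 2.46 ± 0.24 and 2.31 ± 0.27 higher.

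Of 24 matrix proteases and their inhibitors 16 were higher and 1 lower (13 and 1 by median ratios, 10 and 1 without the length trend). TIMP1, an inhibitor of metalloproteases, read 9.902 to 17.2 RPKM (median 14.7) at low pressure, 68.4, 95.4 and 36.4 in PH-Healthy and 70.6, 49.6 and 94.99 in PH-Failure. MMP2, a gelatinase, was higher by 1.79 ± 0.25 and TIMP1 by 2.17 ± 0.22, so protease and inhibitor genes were both up, as was the serine protease inhibitor SERPINE2 (2.06 ± 0.30).

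TGF-beta, BMP and activin genes were called higher in 21 of 32 (median 0.62), with 17 higher and 3 lower by median ratios and the same counts with the length trend removed. Among the ligands TGFB2 read 0.693 to 1.64 RPKM (median 0.896) at low pressure, 5.41, 7.43 and 3.79 in PH-Healthy and 3.21, 6.22 and 5.75 in PH-Failure. It was 1.61 ± 0.17 higher without overlap, and the co-receptor ENG (endoglin) was 1.32 ± 0.22 higher with overlap. Growth factors and their receptors were called higher in 17 of 30 (12 and 1 by median ratios, 14 and 2 without the length trend). PDGFD, a platelet-derived growth factor, read 1.08 to 2.69 RPKM (median 1.796) at low pressure, 6.005, 8.43 and 6.61 in PH-Healthy and 8.78, 7.64 and 8.26 in PH-Failure, and was 1.60 ± 0.14 higher (adjusted p = 1.77e-05). HBEGF, a ligand of the EGF receptor, was 1.83 ± 0.25 higher and FGF18 1.41 ± 0.17 higher. Wnt pathway genes were higher in 10 and lower in 1 of 20 (8 and 2 by median ratios and again without the length trend), with the secreted DKK3 at 56.9 to 89.9 RPKM (median 68.01) in the low group and 177 to 444 RPKM (median 221) in the high group (1.74 ± 0.21).

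Markers of cell types other than cardiomyocytes moved with pressure as well. In bulk tissue, more cells of a type and more RNA per cell cannot be told apart. Fibroblast markers were higher in 14 of 20 measured (median 0.65; 10 and 2 by median ratios, 12 and 0 without the length trend), and their summed level was 937 to 1274 RPKM at low and 1028 to 2180 RPKM at high pressure (exact permutation p = 0.0108, two-sided, adjusted p = 0.0194). PI16, a peptidase inhibitor of adventitial fibroblasts, read 4.54 to 12.4 RPKM (median 5.41) at low pressure, 70.7, 77.8 and 27.5 in PH-Healthy and 63.4, 51.4 and 51.9 in PH-Failure. PI16 was 2.93 ± 0.26 higher and FBLN1, fibulin 1, 1.59 ± 0.19, neither with overlap. Of the fibroblast markers, 8 (DCN, LUM, COL1A1, COL1A2, COL3A1, MFAP4, MFAP5 and FBLN1) are also on the matrix lists above, so the 2 results are not independent. The other 12 tested were higher in 7, and the sums without the 8 were 382 to 499.6 RPKM at low and 399 to 702 RPKM at high pressure, a split chosen after seeing the data. The matrix genes above are largely made by fibroblasts, and the part of this marker shift in them was not tested.

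Endothelial markers were higher in 13 and lower in 1 of 22 (median 0.52; 8 and 2 by median ratios, 6 and 1 without the length trend), and summed to 163 to 301 RPKM at low and 280 to 450 at high pressure. PLVAP, which spans the diaphragms of endothelial openings, read 3.66 to 8.06 RPKM (median 3.97) at low pressure, 19.1, 32.2 and 33.7 in PH-Healthy and 16.7, 33 and 62.9 in PH-Failure. PLVAP (2.42 ± 0.28) and VWF, von Willebrand factor (1.86 ± 0.26), did not overlap between groups. Other members of the list did not rise. Mean levels, low before high pressure, were 35.51 and 27.9 RPKM for EMCN, 8.65 and 5.592 for CLDN5 and 7.549 and 7.388 for ERG. Smooth muscle and pericyte markers were higher in 13 and lower in 3 of 18 (9 and 3 by median ratios, 8 and 3 without the length trend), CALD1 (caldesmon) by 1.27 ± 0.18, while the pericyte gene HIGD1B was -0.79 ± 0.12, lower in every high-pressure animal. Desmin, which cardiomyocytes also make, was 82.1% of that list's sum. Without it the sums overlapped (358 to 489 RPKM at low, 453 to 639 at high pressure) and did not pass the test (exact permutation p = 0.104, two-sided). Among 19 genes of vascular tone 7 were higher and 3 lower, close to the background (4 and 3 by median ratios, 3 and 3 without the length trend, 2 and 2 by quantiles). Of the endothelin system, ECE1, the converting enzyme, was 1.22 ± 0.25 higher with overlap, and EDNRA, the receptor on muscle, read 22.2 to 31.96 RPKM (median 26.5) at low pressure, 15.4, 14.1 and 15.9 in PH-Healthy and 18.5, 10.9 and 17.3 in PH-Failure and was -0.77 ± 0.13, lower without overlap.

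Adipocyte markers were higher in 1 and lower in 2 of 16 (1 and 2 by median ratios, 0 and 2 without the length trend), and their sums of 542 to 961 RPKM at low and 576 to 1777 RPKM at high pressure did not pass the test (exact permutation p = 0.784, two-sided, adjusted p = 0.825). DGAT2, the last enzyme of triglyceride synthesis, was -1.24 ± 0.22, lower in all high-pressure animals. Of 6 Schwann cell and neuronal genes that were measured, 3 were higher and 1 lower (3 and 1 by median ratios, 3 and 1 without the length trend), and 8 of 15 found in the table, among them the defining SOX10 and MBP, were under 1 RPKM in all 12 animals. NCAM1, the neural cell adhesion molecule, which heart muscle can also make, read 0.525 to 2.76 RPKM (median 0.846) at low pressure, 9.69, 10.7 and 7.203 in PH-Healthy and 8.78, 7.85 and 5.41 in PH-Failure (2.09 ± 0.22, no overlap).

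**Figure D4:**
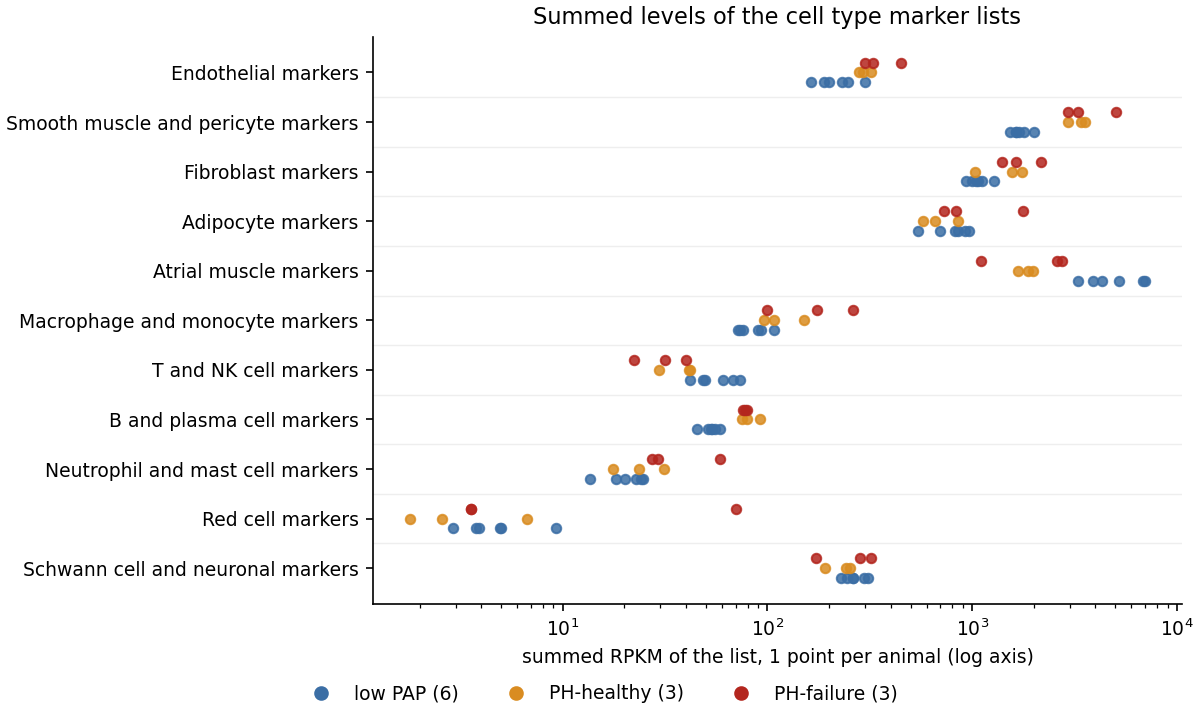
Summed RPKM (log axis) of each list of cell type markers, 1 point per animal in blue (low PAP), orange (PH-healthy) and red (PH-failure). The high-pressure animals lie higher without overlap for smooth muscle and for B and plasma cell lists. These sums overlap once DES and XBP1, respectively, are left out. The B and plasma cell sums then still differ (exact permutation p = 0.00433), and the smooth muscle sums do not pass (p = 0.104). High-pressure animals lie lower for atrial muscle, but higher once MYL7 is left out. They are intermixed for adipocyte and red cell lists, where PH-failure replicate 3 is the rightmost point.

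Immune cell lists moved in different directions. Macrophage and monocyte markers were called higher in 12 of 20 (median 0.58; 7 by median ratios, 8 without the length trend), and their sum was 71.8 to 108 RPKM at low and 96.3 to 262 at high pressure (exact permutation p = 0.0108, two-sided, adjusted p = 0.0194). The macrophage growth factor receptor CSF1R read 2.73 to 4.93 RPKM (median 3.7) at low pressure, 5.93, 10.2 and 5.44 in PH-Healthy and 9.86, 7.27 and 11.3 in PH-Failure. CSF1R (0.95 ± 0.17) and CYBB, a subunit of the phagocyte oxidase (0.89 ± 0.15), were higher in each of the 6. T and NK cell markers were called lower in 5 of 16 (median -0.32) and in 8 under both other settings, with sums of 41.8 to 73.7 RPKM at low and 22.3 to 42.0 RPKM at high pressure (exact permutation p = 0.00433, two-sided, adjusted p = 0.0130). TRAT1 was 28.8% of that sum, and without it the sums were 30.02 to 45.6 and 17.8 to 36.01 RPKM and did not pass the test (exact permutation p = 0.0519). TRAT1, an adaptor of the T cell receptor, read 11.8 to 35.2 RPKM (median 14.2), 9.03, 9.42 and 6.25 and 3.86, 4.91 and 4.45 in low PAP, PH-Healthy and PH-Failure. The difference was -1.45 ± 0.26 without overlap, whereas KLRD1 (-0.63 ± 0.15) and the receptor constant region TRAC (-0.42 ± 0.11) overlapped.

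Of 13 B and plasma cell genes in the table, 9, among them MS4A1 and CD79A, were under 1 RPKM in all animals, and the higher POU2AF1 (1.17 ± 0.22) had 35.7, 37.3 and 14.6 RPKM in PH-Failure against 10.5 to 20.4 at low pressure. XBP1, which many cell types express, was 55.2% of that list's sum. Without it the sums overlapped (16.3 to 26.9 RPKM at low, 24.99 to 45.7 at high pressure) but still differed (exact permutation p = 0.00433, two-sided). From low to high pressure, mean POU2AF1 went from 13.15 to 31.43 RPKM and mean XBP1 from 32.65 to 40.69 RPKM. Red cell genes were called in neither direction, with sums of 2.92 to 9.30 RPKM at low pressure and up to 70.1 in PH-Failure replicate 3. Of 7 neutrophil and mast cell markers that were tested, 1 was higher, LTF (lactoferrin), which was 0.89 ± 0.14 higher. Cytokine and NF-kB genes were called higher in 13 of 22 (10 and 1 by median ratios, 10 and 0 without the length trend). TNFRSF12A, the receptor for the cytokine TWEAK, read 0.496 to 1.67 RPKM (median 1.26) at low pressure, 10.6, 11.2 and 9.59 in PH-Healthy and 6.09, 7.83 and 17.7 in PH-Failure (2.39 ± 0.23, no overlap). The chemokine CX3CL1 was 1.73 ± 0.22 higher and IL6ST, the shared receptor chain gp130, 1.66 ± 0.24. Complement and coagulation genes were called higher in 17 of 30 (10 and 1 by median ratios, 10 and 0 without the length trend), with PROS1, the anticoagulant protein S, 1.90 ± 0.20 higher. Interferon-stimulated genes were called higher in 12 of 28, near the background of 37.3%, and in 4 and 3 in the other settings, EIF2AK2 by 0.79 ± 0.14. MHC class II and antigen presentation genes had 4 of 19 higher (4 and 2 by median ratios, 2 and 0 without the length trend), one of them TAPBP (0.72 ± 0.15).

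Several of the largest falls were in metabolic enzymes. MAOB, the mitochondrial monoamine oxidase B, read 11.4 to 33.8 RPKM (median 20.1) at low pressure, 1.55, 0.685 and 0.616 in PH-Healthy and 6.37, 1.08 and 1.01 in PH-Failure. It had the largest fall, with a difference of -3.05 ± 0.35 (adjusted p = 1.05e-04), and PH-Failure replicate 1 was the nearest to the low-pressure range. ITGB1BP3, also called NMRK2, is a muscle kinase that phosphorylates nicotinamide riboside, a step of NAD synthesis. ITGB1BP3 read 582 to 1395 RPKM (median 1107) at low pressure, 182, 302 and 314 in PH-Healthy and 379.9, 284 and 29.2 in PH-Failure. Its difference of -2.29 ± 0.51 (adjusted p = 0.004203) left PH-Failure replicate 1 nearest to the low-pressure range and replicate 3 farthest from it. C14H8orf22, an uncharacterized gene, read 7.63 to 28.9 RPKM (median 19.7), 0.751, 0.618 and 2.001 and 0.804, 3.88 and 3.15, and CA13, a carbonic anhydrase, 1.87 to 5.101 RPKM (median 3.73), 0.106, 0.0468 and 0.145 and 0.0929, 0.135 and 0.6402. CA13 was below 1 RPKM in all 6 high-pressure animals, and the differences were -2.69 ± 0.35 and -1.98 ± 0.18.

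DHRS7C, a dehydrogenase of the sarcoplasmic reticulum, read 126 to 197 RPKM (median 159.5) at low pressure, 55.6, 42.4 and 83.1 in PH-Healthy and 76.5, 54.1 and 54.8 in PH-Failure (-1.40 ± 0.17). LRRC3B, a leucine-rich repeat gene, was narrow at low pressure, 11.4 to 12.4 RPKM (median 11.8), and read 2.57, 3.04 and 3.21 and 7.48, 3.68 and 3.902 in PH-Healthy and PH-Failure (-1.43 ± 0.13, adjusted p = 2.62e-05). FAH, the last enzyme of tyrosine breakdown, was -1.50 ± 0.18, and the phospholipid-modifying HRASLS was -1.84 ± 0.17, with the failing animals at 6.98, 4.23 and 8.43 under the PH-Healthy at 10.6, 12.3 and 12.2. The other 3 of the 15 largest falls were MGC152484 (-2.10 ± 0.32), TTC9 (-1.41 ± 0.27) and SMIM5 (-1.40 ± 0.21). All 15 lay below every low-pressure animal, by the rule that chose them.

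Fatty acid uptake and oxidation genes were lower in 14 and higher in 3 of 37 (median -0.28), with 23 lower by median ratios and 22 without the length trend. HADHB, a subunit of the mitochondrial trifunctional protein of beta-oxidation, read 295 to 409 RPKM (median 326) at low pressure, 183, 124 and 136 in PH-Healthy and 170.2, 156 and 196 in PH-Failure. ECHS1, the short-chain enoyl-CoA hydratase, read 226 to 337 RPKM (median 274), 156, 145 and 151 and 212, 138 and 118. Both were lower in every high-pressure animal, with differences of -1.05 ± 0.12 and -0.89 ± 0.14, whereas PPARD, a nuclear receptor that activates such genes, was 1.00 ± 0.12 higher, from 1.75 to 3.58 to 5.36 to 6.52 RPKM. TCA cycle genes were lower in 7 and higher in 2 of 24 (median -0.20; 15 lower by median ratios, 13 without the length trend), SUCLA2, a subunit of succinyl-CoA synthetase, being at -0.59 ± 0.12. Glycolysis and glucose genes were mixed, with 6 higher and 4 lower of 26, and more were lower than higher in the other settings (3 and 7 by median ratios, 2 and 7 without the length trend). The muscle phosphoglycerate mutase PGAM2 was -0.99 ± 0.16, lower without overlap, and hexokinase 1 (HK1) was 0.64 ± 0.14 higher (adjusted p = 0.07503 with the length trend removed). Amino acid and ketone breakdown had 5 higher and 5 lower of 29 (2 and 11 by median ratios, 3 and 9 without the length trend), and BCKDHB, a subunit of the branched-chain keto acid dehydrogenase, was -0.87 ± 0.19.

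Genes of oxidative phosphorylation were called lower in large shares of their 3 nuclear lists. Complex I subunits were called lower in 31 of 38 (median -0.54), genes of complexes III and IV in 17 of 25 (median -0.54) and a list of ATP synthase genes, which also holds 2 creatine kinases (CKM, CKMT2) and the ADP/ATP and phosphate carriers (SLC25A4, SLC25A3), in 16 of 21 (median -0.54), against 10.4% of all genes. By median ratios these counts were 36, 21 and 20, and with the length trend removed 28, 15 and 16. By quantiles they were 25, 9 and 7, against 21.1% of all genes. Their exon lengths per gene are short, with medians of 642, 496 and 739 bases. NDUFB3 of complex I read 413 to 739.5 RPKM (median 544) at low pressure, 321, 325 and 308 in PH-Healthy and 366, 321 and 231 in PH-Failure. COX7A1, the muscle isoform of a cytochrome oxidase subunit, read 1697 to 2921 RPKM (median 2446), 1187, 1330 and 1267 and 1623, 1166 and 948. PH-Failure replicate 3 was the lowest animal for both, the groups were separate, and the differences were -0.85 ± 0.15 and -0.93 ± 0.16. COX6C was -0.87 ± 0.15 and ATP5J -0.67 ± 0.12.

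The 13 protein genes of the mitochondrial genome were lower in 5 and higher in 1 (median -0.17). By median ratios 8 were lower and 0 higher (median -0.41). With the length trend removed, and again with non-mitochondrial scaling, 3 were lower and 1 higher. By quantiles 1 was lower and 1 higher (median 0.06), so this list's fall did not hold there. COX1 read 52420 to 80950 RPKM (median 57200) at low pressure, 47860, 35920 and 43680 in PH-Healthy and 47110, 46230 and 35970 in PH-Failure, and COII and ND1 were -0.54 ± 0.12 and -0.56 ± 0.12 beside the -0.48 ± 0.14 of COX1. By quantiles COX1 and ND1 were not called (adjusted p = 0.447 and 0.282), and COX1 was not called with non-mitochondrial scaling (0.0515). These transcripts made up 31.06 ± 2.39% of the summed RPKM at low pressure and 27.97 ± 1.29% at high pressure (SD, n = 6 each; exact permutation p = 0.0108, two-sided, adjusted p = 0.0194). Within the 2 library series of the column names, with 3 animals of each pressure in each, the shares were 30.6% and 27.9% in one and 31.5% and 28.1% in the other, low before high. RPKM is scaled to all mapped reads, so mitochondrial reads enter the scaling of every other gene. The summed RPKM outside the mitochondrial genome, relative to its mean, was 0.9555 to 1.126 at low and 0.9245 to 1.027 at high pressure. The non-mitochondrial counts above follow these sums, and the part of the mitochondrial share in them was not tested.

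Ribosomal protein genes were also examined. Cytosolic ones were called lower in 41 of 76 (median -0.41), in 67 by median ratios and in 28 with the length trend removed. By quantiles only 9 were lower and 1 higher (median -0.12), a smaller share than the 21.1% of all genes, so this list's fall did not hold there. RPS26 read 383 to 662 RPKM (median 440.5) at low pressure, 211, 229.9 and 230.5 in PH-Healthy and 347, 229.9 and 353 in PH-Failure, a difference of -0.86 ± 0.15 without overlap. RPS29 (-0.58 ± 0.14) overlapped between groups and was -0.21 with the length trend removed (adjusted p = 0.0576). These genes have many copies in the genome, so single values are uncertain. Mitochondrial ribosomal proteins were called lower in 50 of 75 (median -0.37), in 65 and in 52 in these settings and in 58 by quantiles. MRPL48 read 38.5 to 56.1 RPKM (median 50.98), 28.1, 29.9 and 29.4 and 28.8, 29.7 and 27.8 in low PAP, PH-Healthy and PH-Failure. It lay below every low-pressure animal in each of the 6 (-0.73 ± 0.10, adjusted p = 2.07e-04), as did MRPL21 (-0.89 ± 0.13).

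Quantile normalization moved other list counts by over 1.5 times as well. There 5 of 20 macrophage and monocyte markers, 1 of 28 interferon-stimulated genes, 10 of 30 complement and coagulation genes, 10 of 24 matrix proteases and inhibitors and 8 of 28 hypoxia genes were higher, against 17.0% of all genes. Other lists with such moves included endoplasmic reticulum stress (8 of 28 higher), chromatin (21 of 35), and atrophy and autophagy genes (7 of 31). Further ones were clock (5 of 18), translation (7 of 39), adrenergic (11 of 30) and MHC class II genes (1 of 19). The T and NK cell markers were lower with quantiles in 13 of 16. Collagens were higher in 25 and matricellular genes in 26, close to their counts in the main scaling.

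**Figure D5:**
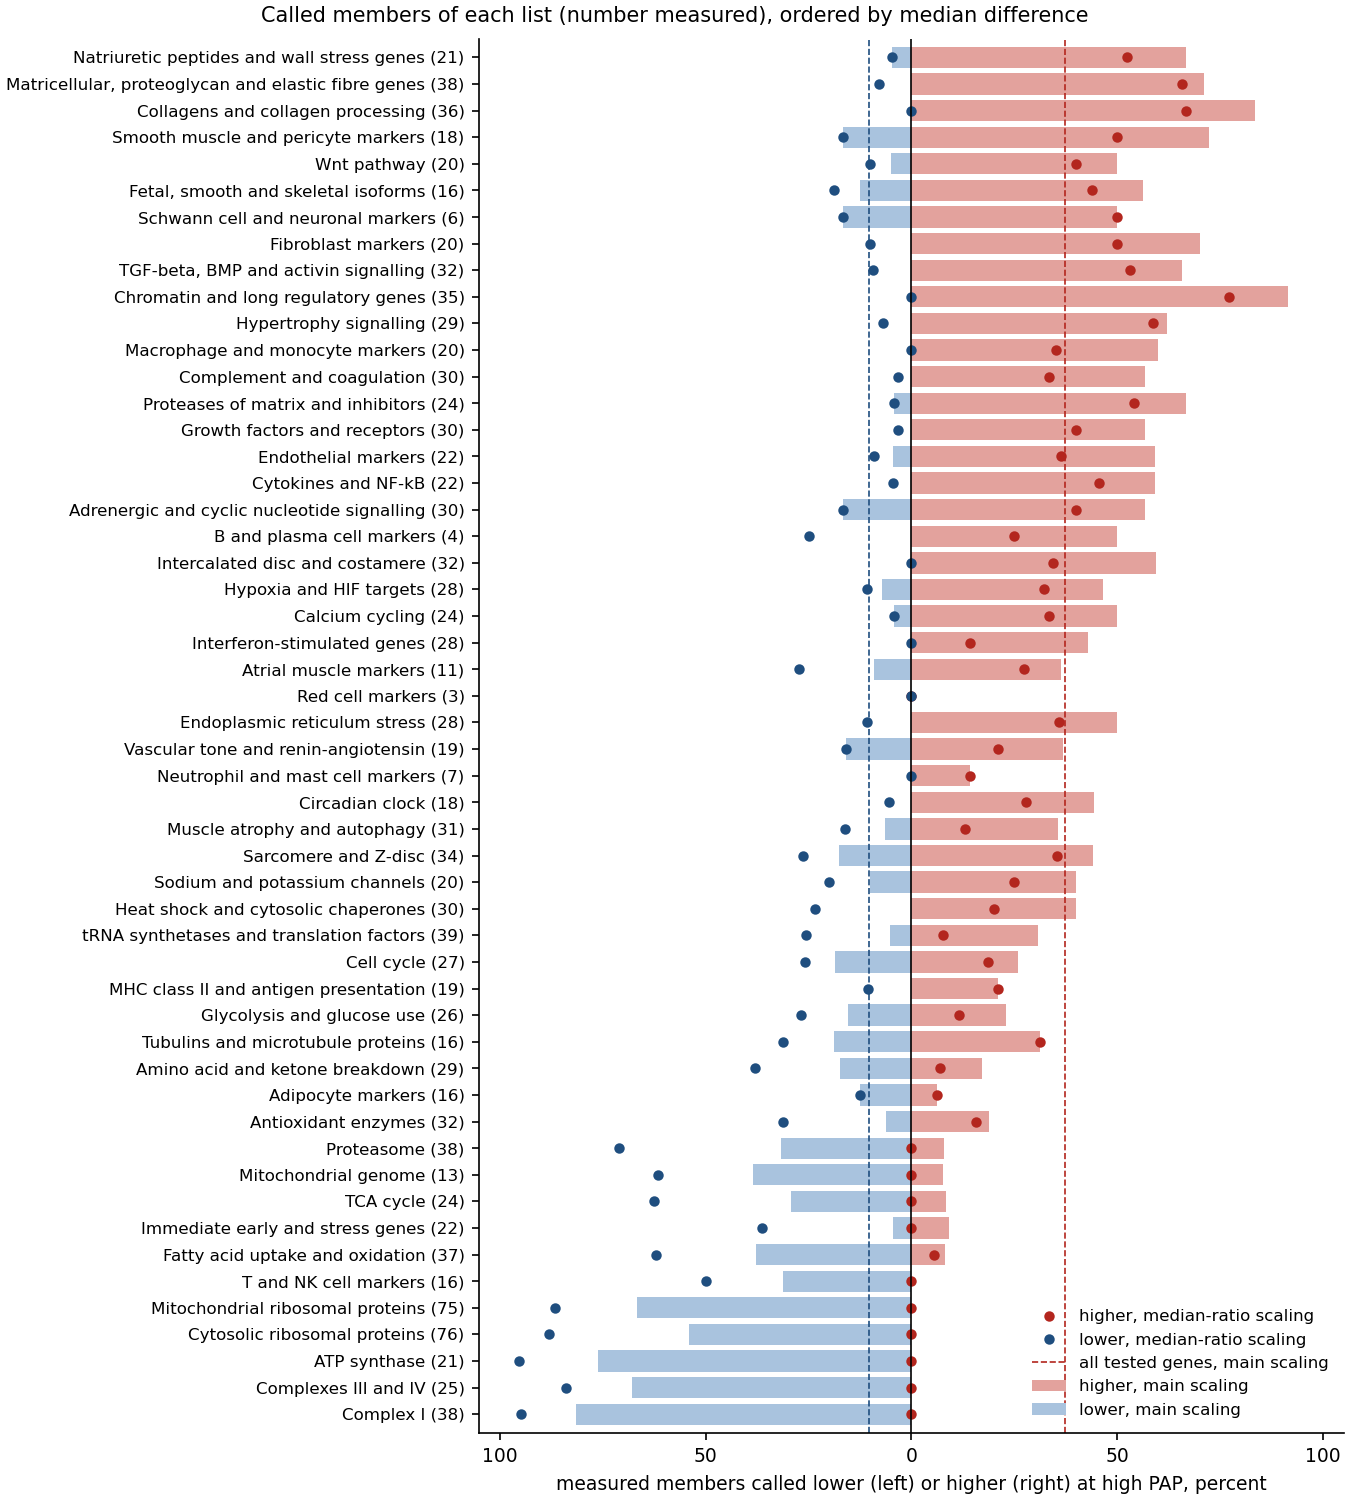
Percent of the measured members of each of 52 gene lists called lower (blue bars, to the left) or higher (red bars, to the right) at high pressure in the main scaling, with dots for median-ratio scaling and dashed lines for all tested genes in the main scaling (10.4% lower, 37.3% higher). Lists are ordered by their median difference, so wall stress, matrix and collagen lists lie at the top, and respiratory complexes and ribosomal proteins at the bottom.

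Stress and protein turnover lists were less uniform. Heat shock genes were called higher in 12 of 30, near the background of 37.3%, but their median of 0.20 was -0.03 by median ratios, with 6 higher and 7 lower (6 and 5 without the length trend). HSPB7, a small heat shock protein of heart muscle, read 127 to 231 RPKM (median 185) at low pressure, 544, 459 and 559.8 in PH-Healthy and 483, 475 and 487 in PH-Failure. HSPB7 was 1.50 ± 0.14 higher and the abundant CRYAB, alpha-B crystallin, 0.82 ± 0.12, both without overlap. Endoplasmic reticulum stress genes were called higher in 14 of 28 (10 and 3 by median ratios, 9 and 0 without the length trend), the sensor ATF6 by 1.77 ± 0.24. Proteasome genes were lower in 12 and higher in 3 of 38 (27 and 20 lower in the other settings), PSMA3 being at -0.40 ± 0.10. Among atrophy and autophagy genes, 11 were higher and 2 lower of 31, near the shares of all genes (4 and 5 by median ratios, 4 and 4 without the length trend), with the muscle ubiquitin ligase FBXO32 (atrogin-1) at 8.87 to 24.2 RPKM (median 14.4) in the low and 27.4 to 55.9 RPKM (median 38.5) in the high group (1.40 ± 0.22) and the ubiquitin gene UBB lower (-0.53 ± 0.10). Antioxidant genes had 6 higher and 2 lower of 32, fewer than the 37.3% and 10.4% of all genes, and the balance turned in the other settings (5 and 10 by median ratios, 5 and 6 without the length trend). GPX3, secreted glutathione peroxidase, read 40.5 to 103 RPKM (median 79.1) at low pressure, 118, 293 and 329.9 in PH-Healthy and 172, 292 and 1043 in PH-Failure (1.97 ± 0.40). HMOX1, heme oxygenase 1, was -1.43 ± 0.36, lower with overlap, and TXNRD1, thioredoxin reductase, 0.56 ± 0.09 higher.

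Hypoxia and HIF target genes were higher in 13 and lower in 2 of 28 (9 and 3 by median ratios, 10 and 3 without the length trend), between animals that all lived in low oxygen. SLC2A3, a glucose transporter, was 1.22 ± 0.20 higher and EGLN3, an oxygen-sensing prolyl hydroxylase, 1.28 ± 0.25. Cell cycle genes were split, with 7 higher and 5 lower of 27 (5 and 7 by median ratios, 5 and 7 without the length trend). CDKN2B, an inhibitor of cyclin-dependent kinases, read 0.0838 to 0.345 RPKM (median 0.153) at low pressure, 2.65, 4.63 and 4.33 in PH-Healthy and 0.916, 2.23 and 5.02 in PH-Failure (1.76 ± 0.22). Cyclin D2 (CCND2) was 1.04 ± 0.11 higher and the replication clamp PCNA -0.59 ± 0.12, lower. Clock genes were called higher in 8 of 18 (5 and 1 by median ratios, 5 and 0 without the length trend), CLOCK by 0.86 ± 0.18. Translation genes were higher in 12 and lower in 2 of 39, under the 37.3% and 10.4% of all genes, and the balance turned in the other settings (3 and 10 by median ratios, 3 and 7 without the length trend). Among them the muscle elongation factor EEF1A2 was 0.66 ± 0.12 higher.

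A list of chromatin regulators and transcriptional coactivators, proteins that package and mark DNA or join transcription factors to it, was chosen partly for long transcripts. Of 35, 32 were called higher (median 0.60) and 27 by median ratios. Their median exon length, long by that choice, is 6971 bases, and with the length trend removed 8 were higher and 1 lower (19.4% and 19.2% of all genes), with a median of 0.05. CHD4, a nucleosome remodeller, read 10.6 to 16.99 RPKM (median 11.7) at low pressure, 22.6, 22.1 and 21.2 in PH-Healthy and 20.6, 21.2 and 21.7 in PH-Failure. Its difference of 0.72 ± 0.11 was 0.24 with the trend removed, and that of the histone methyltransferase NSD1 went from 0.81 ± 0.12 to 0.26.

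The animals of a group were not equally far from the other group. In the 1905 genes without overlap, the low-pressure animal nearest to the high group was Low-PAP replicate 6 in 940 and replicate 2 in 583, and the high-pressure animal nearest to the low group was PH-Failure replicate 1 in 876. Without both Low-PAP replicates, 4980 genes were higher and 1301 lower, and 817 were higher by at least 2-fold against 496 with them. PH-Failure replicate 1 was also the library of lowest depth.

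Within the high-pressure group, failing and PH-Healthy animals were set against each other in the same model. It called 0 genes higher and 1 lower in PH-Failure (0.00879% of tested genes), limma-voom on the recovered reads called 0 in either direction, and 308 genes (2.71%) had an unadjusted p under 0.05, 137 of them among the 5421 genes that differed with pressure. The 1 gene was a BPHL entry, BPHL ENSBTAG00000045888 (chromosome 23, 50406550 to 50408215). It read 12.97 to 19.4 RPKM (median 14.7) at low pressure, 17.8, 17.7 and 17.96 in PH-Healthy and 7.81, 7.62 and 6.33 in PH-Failure, a difference of -1.19 ± 0.14 between failing and PH-Healthy (adjusted p = 0.0154). It was not called without any 1 of the PH-Healthy animals, without PH-Failure replicate 1 or 3, or with the library series or an adipocyte score in the model. It lies inside the positions of the longer BPHL entry (chromosome 23, 50394683 to 50417050), a mitochondrial hydrolase gene. That entry read 14.8, 13.7 and 13.97 in PH-Healthy and 8.804, 8.14 and 5.94 in PH-Failure. The 2 entries may share reads, which was not tested, since the counting rule is not given. RAB33A, a small GTPase, was higher at high pressure (2.69 to 4.01 RPKM (median 3.37) at low, 22.2, 30.2 and 17.4 in PH-Healthy, 11.8, 16.6 and 12.2 in PH-Failure, 2.10 ± 0.14). Its difference of -0.72 ± 0.20 between failing and PH-Healthy animals did not pass the test (adjusted p = 0.9995). RGS16, a regulator of G-protein signals, and CYP1B1, a cytochrome P450, read 2.44, 2.46 and 3.004 and 5.18, 2.39 and 3.65 RPKM in PH-Failure against 0.749, 1.598 and 0.805 and 2.03, 1.16 and 1.198 in PH-Healthy, also without passing (adjusted p = 0.687 and 0.9995). With 3 animals on each side these values do not show that the groups are alike.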

How the data were processed

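RNA was extracted with TRIzol and made into standard Illumina libraries, per the labels' protocols. The table deposited by the authors gives RPKM of 24616 genes in 12 libraries, per its column names, beside Ensembl identifiers, symbols and positions. Alignment, genome build, strand use and read counting: not given in the sources used here. The authors' means, folds and p-values were not used.

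Read numbers were recovered from the steps between RPKM values, whole within 0.05 reads for 11373 of 11374 tested genes. Exon lengths per gene were inferred in the same step, as whole numbers of bases that made the reads whole. A gene was tested if 3 or more libraries reached 1 RPKM, using limma 3.58.1 in R 4.3.3 (statmod 1.5.0), with a variance trend and robust moderation, on log2(RPKM + 1), in 1 model of 3 groups without covariates. The planned tests allowed for counts or RPKM, and the RPKM test was used. High minus low is the mean of both PH groups minus low PAP. p-values were Benjamini-Hochberg adjusted over all tested genes and called under 0.05. Library measures were compared by two-sided exact permutation tests over all groupings, whose smallest possible p is 0.00216, with adjustment over 18 measures. Plots were drawn with matplotlib 3.10.9 from tables made with pandas 2.3.3 and numpy 2.4.6 in Python 3.11.15.

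On simulated counts with these groups (10809 genes run), 88% of 2-fold and 100% of 4-fold changes were called, with 6 unchanged genes called. Changes were planted only in genes above a minimum level at low pressure. The simulated noise was independent between genes, without a shift of all genes or a trend on exon length. These rates therefore do not give the errors of the calls in the real libraries. The 52 gene lists had 1605 entries, of which 1515 matched a row and 1355 were tested. MYH6 was on a list but is not a symbol of the table. One list symbol, COII, was corrected after the table was read. The members, lists and rules were chosen with earlier results of these data known. Named genes were NPPA, NPPB, MYH7, MYH6 and ACTA1, the 15 called genes per direction with the largest difference, a symbol, a mean log2 of at least 1 and no overlap, up to 4 called genes of smallest p per list, and the 4 of smallest p per direction between PH-Failure and PH-Healthy among called genes, not all of which are printed. Median-ratio scaling, quantile normalization, scaling to the summed non-mitochondrial RPKM, filters, a pseudocount of 0.1, model terms and left-out animals were tried. The length trend, limma-voom on recovered reads and the removal of both Low-PAP replicates 2 and 6 were chosen after seeing the data. Replicate numbers mark different animals and did not pair the samples.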

Additional observations from a re-analysis of the deposited data

Results flagged for a closer look

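In 306 groups of 6 libraries, each a gene or library measure named above within 1 pressure group, 33 (10.8%) had 1 library far from the other 5, by Dixon's test on log2 values for genes. Chance flags about 1 in 20 such groups, and groups that share a library are not independent.

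At high pressure PH-Failure replicate 1 was the lowest for SCN3B (102 RPKM), FSTL3 (11.97), XIRP2 (47.6), FLNC (62.1), MAP4 (62.8), CTNNA3 (14.3) and IL6ST (16.9), and the highest for MAOB (6.37), TUBA1D (0.603) and LRRC3B (7.48). In each of these it was the high-pressure animal nearest to the low-pressure group. It also had the fewest genes above 0 (15120, against 15350 to 15460 in the other 5) and the lowest depth.

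PH-Failure replicate 3 was the highest at high pressure for DES (4478 RPKM), MYH10 (21.5) and CA13 (0.6402), and the lowest for ITGB1BP3 (29.2), BCKDHB (9.73), NDUFB3 (231), COII (12910) and POU2AF1 (14.6). It also had the highest summed levels of endothelial (450.0 RPKM), smooth muscle and pericyte (5019), adipocyte (1777), neutrophil and mast cell (58.99) and red cell markers (70.09). PH-Healthy replicate 3 was the lowest for FBLN1 (19.4), and PH-Healthy replicate 1 had the highest sum of B and plasma cell markers (91.95).

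At low pressure, Low-PAP replicate 1 was the highest for SPP1 (2.12 RPKM) and COX1 (80950), for the share of the 20 most abundant genes (47.77% of summed RPKM) and for red cell markers (9.297 RPKM). Low-PAP replicate 6 was the highest for LTBP2 (5.75), replicate 2 for CLOCK (2.31) and replicate 5 for BPHL (25.7).

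The BPHL ENSBTAG00000045888 entry differed between the PH groups, by -1.19 in PH-Failure minus PH-Healthy (limma adjusted p = 0.0154, 3 animals each), and was lower in all 3 failing animals.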

How the results depend on the processing

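The replicate numbers mark different animals. Same-numbered libraries deviated together with correlations of -0.257 to 0.193, and not every library correlated best with its own number. With the numbers as a block (replicate block), 2517 genes were higher and 510 lower, the lower gene between the PH groups was not called (0), and of the 135 genes named 126 stayed on the same side of the threshold. The higher numbers occur only in the low-PAP group, and a block takes those animals out of the contrast. The part of this loss of animals in the lower counts was not tested. Against 4243 and 1178 genes, quantile normalization gave 1930 and 2405, median-ratio scaling 2504 and 2542, and the length trend removed 2201 and 2189. Genes with at least 2-fold differences numbered 496 and 68, against 262 and 129 by quantiles, 279 and 146 by median ratios, 1027 and 132 with a pseudocount of 0.1, and 1155 and 142 with limma-voom. Of the higher ones, 279 were found with the length trend removed and 817 without Low-PAP replicates 2 and 6. Between the PH groups, 0 genes were lower with limma-voom, with a term for the adipocyte score and with one for the library series, and 2 without Low-PAP replicates 2 and 6.

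Leaving out 1 animal at a time gave 3490 to 4646 higher and 932 to 1381 lower genes, 419 to 617 and 60 to 98 by at least 2-fold, and between the PH groups 0 to 3 higher and 0 to 2 lower. The other settings tried (no filter, a stricter filter, 2 groups, library series, adipocyte score, exact permutation per gene, non-mitochondrial scaling) kept the counts higher and lower within 1.5 times. Of the 135 genes named, MYH7 alone turned its sign in any setting (-0.066 with the length trend removed).

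RPKM was the only unit, so mitochondrial reads count in the mapped reads that scale every other gene. Median depth of 370 reads per gene limits counting error only. The positions have no stated build, and the comparison of failure rests on 3 animals.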
